A study of Homo sapiens with 24 samples.

Results

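The expression of 10 genes at the entry of insulin-like growth factor (IGF) and insulin signalling was described in 4 human gastrointestinal carcinoma cell lines treated with melatonin. They were the 6 IGF-binding proteins IGFBP1 to IGFBP6, the receptors IGF1R and INSR, and the insulin receptor substrates IRS1 and IRS2. These genes were chosen by name, with earlier results of these data known. All 10 were among the 18265 genes measured, with 32 of 45336 probe sets. HGC-27 cells come from gastric carcinoma, HCT-8 cells from colorectal carcinoma, and Huh-7 and HepG2 cells from hepatocellular carcinoma. From each line, 3 samples exposed to millimolar melatonin for 24 h and 3 control samples were hybridized to 1 array each, which gave 24 arrays, with no genetic change in either group. The labels place the control cells at 0 h, whereas the methods of the study describe cells kept in the ethanol vehicle for the same time, so melatonin, solvent and time in culture cannot be told apart. Cells were grown in medium with serum, which brings IGFs, binding proteins and insulin of its own to the receptors. The study calls the 3 arrays of a group biological replicates, each line is 1 cell line, and p-values measure the spread between these arrays.

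IGFs circulate and act next to cells largely bound to IGF-binding proteins. Most binding proteins hold the ligand away from its receptor, and some can also release it there or act on cells without it. IGF1R binds IGFs and INSR binds insulin, and both are tyrosine kinases that phosphorylate IRS1 and IRS2, the adaptors through which PI3K and AKT are switched on. AKT in turn keeps the FoxO transcription factors out of the nucleus. In hepatocytes FoxO factors drive IGFBP1, IRS2 and the glucose-producing gene G6PC1, and insulin represses these genes. IGFBP1 is thus known in liver as a gene that is high in fasting and low after feeding.

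The labelled tissues were checked first. Marker levels were taken as means over all control and melatonin arrays of a line. All 8 hepatocyte markers measured lay above the median of all genes in Huh-7 and HepG2 cells, and 7 of 8 intestinal epithelial markers did so in HCT-8 cells. None of 4 gastric epithelial markers and 3 of 5 fibroblast markers did so in HGC-27 cells. Array medians ran from 2.13 to 3.33 on the log2 scale and lay close together within a line, so changes were tested within a line. In Huh-7 cells 4 of 8 intestinal and 2 of 4 gastric markers also lay above the median, and in HCT-8 cells 2 of 4 gastric markers. With melatonin, 5 of 8 hepatocyte, 4 of 8 intestinal and 2 of 4 gastric markers were lower in Huh-7 cells, and 5 of 8 intestinal and 2 of 4 gastric markers in HCT-8 cells, beside 27.4% and 15% of all genes. HepG2 melatonin replicate 1 stood apart. The 3′ minus 5′ signal was 8.34 for ACTB and 7.72 for GAPDH there (log2), against at most 0.72 and 0.07 on the other arrays. HepG2 fits were therefore made with and without this array, and HepG2 values are from all arrays of the line unless stated. Over all genes, the median log2 fold change ran from -0.06 to 0.04 over the 4 lines.

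The promoter table used here, made from RefSeq (build GRCh38.p14), holds 11 windows for 9 of the 10 genes, 3 of them for IGFBP2 and none for IGFBP1, and the 250 bases before each start were searched on both strands. The GC box GGGCGG, a site of Sp1-type factors, was found in 9 of the 11 windows and in 42.6% of all 35116 windows. GC content ran from 56.4% to 81.2%, beside a median of 58.0% over all windows. TATA-like letters were found in 2 windows, as TATATA at IGFBP3 (3.73% of all windows) and as TATAAA at IGFBP4 (10.7%), beginning 30 and 29 bases before the start. The insulin response element core TGTTTTG, letters known from the IGFBP1 promoter, was found at IRS2 and at none of the other windows searched (4.3% of all windows), beginning 40 bases before the start. The FoxO core TGTTTAC was found at IGFBP6 (2.98% of all windows), and the ATF4 motif TGATGNAA (3.14%) and the E box CACGTG (6.34%) in none of the 11. Matches to different motifs shared no letters, overlapping GC boxes were counted singly, and a match describes letters, not binding. The bases just before the start are shown for IGFBP3 and IGFBP4, the pair with TATA-like letters that changed in opposite directions in HGC-27 cells, for INSR, which rose in 2 lines, and for IRS2 with its insulin response core. They lie at chr7:45921273-45921402 (minus strand), chr17:40443320-40443449 (plus strand), chr19:7294415-7294564 (minus strand) and chr13:109786584-109786733 (minus strand), and are written 5′ to 3′ up to the base before the start, with the matches named above in capitals.
IGFBP3: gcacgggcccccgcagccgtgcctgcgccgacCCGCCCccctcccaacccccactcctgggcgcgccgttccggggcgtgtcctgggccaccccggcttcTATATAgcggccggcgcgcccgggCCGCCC
IGFBP4: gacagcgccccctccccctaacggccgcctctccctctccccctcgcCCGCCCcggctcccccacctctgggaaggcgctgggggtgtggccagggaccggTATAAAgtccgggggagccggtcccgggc
INSR: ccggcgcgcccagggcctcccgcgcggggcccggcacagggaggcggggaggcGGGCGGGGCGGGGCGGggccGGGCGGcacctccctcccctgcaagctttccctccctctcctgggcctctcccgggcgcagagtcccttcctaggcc
IRS2: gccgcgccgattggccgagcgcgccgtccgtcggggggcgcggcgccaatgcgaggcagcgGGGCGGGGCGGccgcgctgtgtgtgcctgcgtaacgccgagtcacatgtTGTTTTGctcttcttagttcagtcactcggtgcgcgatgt

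The 4 lines differed in which binding proteins they expressed. Levels are given for each gene as the control mean minus the array median, on the log2 scale, as a description without a test. Array medians differed between lines, so an order of lines can depend on this choice. IGFBP1 lay at 5.63 ± 0.13 (SD, n = 3) in HepG2 cells and between -2.17 and -1.66 in the other lines, where the HGC-27 and Huh-7 arrays overlapped. IGFBP2 was highest in HCT-8 cells (6.13), followed by HGC-27 (5.07), HepG2 (0.28) and Huh-7 cells (-1.61), with no overlap between neighbours. IGFBP3 lay at 4.26 in HGC-27 cells, at -0.31 in HCT-8 cells and at -1.75 and -1.78 in HepG2 and Huh-7 cells, which overlapped. IGFBP4 ran from 3.48 in HGC-27 cells over 2.29 in HCT-8 and 0.44 in HepG2 to -1.06 in Huh-7 cells. IGFBP5 was above the array median in HGC-27 cells (1.26) and below it elsewhere, with Huh-7 and HepG2 overlapping. IGFBP6 was highest in HCT-8 cells (3.74), then HGC-27 (2.51), HepG2 (1.17) and Huh-7 cells (-1.64). Huh-7 cells thus had all 6 binding proteins below the array median.

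The signalling genes followed other orders. IGF1R was highest in HepG2 cells (0.92), then HGC-27 (0.36) and Huh-7 cells (0.19), and lay at -1.03 in HCT-8 cells. As deposited, its control mean was 3.29 in HGC-27 and 3.37 in Huh-7 cells, so the order of these lines depends on the array median taken off. INSR was highest in Huh-7 cells (1.87), then HepG2 (1.25), HCT-8 (0.77) and HGC-27 cells (-0.67). IRS1 was highest in Huh-7 cells (1.93), then HepG2 (1.76), HGC-27 (-0.70) and HCT-8 cells (-1.15). IRS2 lay at 1.84 in HCT-8 cells and between -1.99 and -1.66 in the other lines, where HGC-27 and Huh-7 arrays overlapped. HCT-8 cells thus showed IRS2 above and IRS1 below the array median, and both hepatic lines the reverse.

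**Figure D1:**
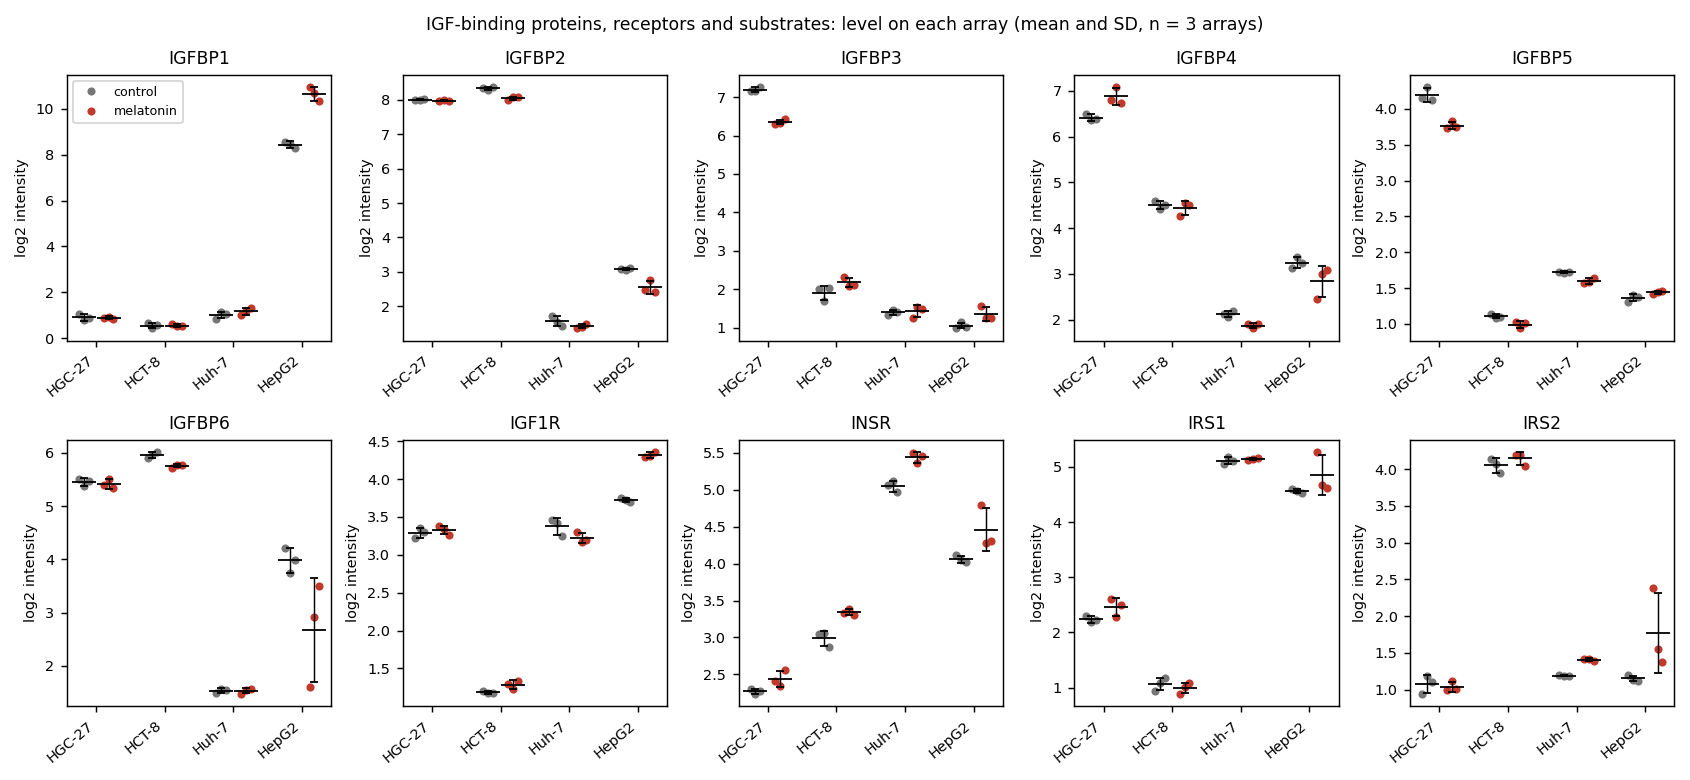
Level of each of the 10 genes on each array, as deposited log2 intensity (vertical axis, scaled per gene), for control (grey) and melatonin (red) arrays of each line. Bars give the mean and SD of 3 arrays. IGFBP1 lies above 8 in HepG2 cells and below 1.4 in the other lines, and 1 HepG2 melatonin array lies apart for IGFBP6 (1.60) and IRS2 (2.39).

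In each line 3 of the 10 genes changed with melatonin at an adjusted p under 5% (limma, Benjamini-Hochberg over all genes). INSR was higher in both HCT-8 and Huh-7 cells, IGFBP2 was lower in both HCT-8 and HepG2 cells, and IGFBP4 was called in opposite directions in HGC-27 and Huh-7 cells. In HGC-27 cells 1 gene was higher and 2 were lower, beside 20.9% higher and 18.7% lower among all genes. In HCT-8 cells 1 was higher and 2 were lower, beside 16.6% and 15%. In Huh-7 cells 2 were higher and 1 was lower, beside 23.8% and 27.4%. In HepG2 cells 2 were higher and 1 was lower, beside 3.87% and 3.67%, and without melatonin replicate 1 the counts were 4 and 2, beside 16.4% and 14.9%. The share of 30% was thus below that of all genes in Huh-7 (51.2%), HGC-27 (39.6%) and HCT-8 cells (31.6%) and above it in HepG2 cells (7.54%), where 6 of 10 passed without melatonin replicate 1, beside 31.3%. Melatonin and control arrays did not overlap for 10 members in HepG2, 4 in HGC-27, 4 in Huh-7 and 6 in HCT-8 cells, beside 35.5%, 49.1%, 59.5% and 45.6% of all genes. The median log2 fold change of the 10 genes was 0.30 in HepG2 (0.15 without melatonin replicate 1), -0.03 in HGC-27, 0.01 in Huh-7 and -0.03 in HCT-8 cells.

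IGFBP1, the liver binding protein repressed by insulin, rose in HepG2 cells and showed the largest change of the 10 genes in any line. Its control arrays read 8.57, 8.45 and 8.30, and its melatonin arrays 10.94, 10.70 and 10.32. The groups were separated by more than the spread of either, and no melatonin array was near a control array. This was a log2 fold change of 2.21 ± 0.17 (SE, n = 3 and 3) or a 4.64-fold rise, with a limma adjusted p of 0.00455. Without melatonin replicate 1 it was 2.07 ± 0.12 (4.2-fold, limma adjusted p 4.63e-05). In the other 3 lines the gene was near the low end of the array, between 0.43 and 1.33 on single arrays, and melatonin and control arrays overlapped. IGFBP1 is read by 1 probe set here, of a kind whose probes can also match related transcripts.

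IGF1R, the IGF receptor, also rose in HepG2 cells. Its control arrays read 3.75, 3.73 and 3.70, and its melatonin arrays 4.29, 4.30 and 4.36. The mean over its 7 probe sets lay close together in each group, but single probe sets did not: on melatonin replicates 1, 2 and 3, 11718705_at read 7.28, 6.48 and 6.46 and 11752328_a_at read 1.36, 2.76 and 2.26. It rose by 0.59 ± 0.07 on the log2 scale (limma adjusted p 0.0104), and by 0.60 without that array. The call was lost with arrays centred on the probe sets of the ERCC spike-in RNAs, added at extraction (0.35), and with the probe set of the highest mean (0.68). In each line only 1 or 2 of the 100 ERCC probe sets lay above the median, which limits ERCC centring here and below.

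IGFBP2, a binding protein made by fetal and adult liver, fell in HepG2 cells. It read 3.09, 3.05 and 3.12 in control and 2.46, 2.77 and 2.43 in melatonin-treated cells. The groups did not overlap, and the log2 fold change was -0.53 ± 0.11 (limma adjusted p 0.0448) and -0.48 without melatonin replicate 1. This call lay closest to the threshold of the 3 and was lost with arrays centred on their median (-0.49) or on ERCC probe sets (-0.77), with an intensity trend, with the methods' t-test and under a minimum of 1.5-fold, and its probe set did not pass over all probe sets (limma adjusted p 0.074).

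Melatonin replicate 1 was the extreme array for several other genes in HepG2 cells. IGFBP6, which prefers IGF2 over IGF1, read 4.21, 3.73 and 3.99 in control and 1.60, 2.92 and 3.49 in melatonin-treated cells. The lowest value was that of replicate 1, and the other melatonin arrays also lay under the controls. The log2 fold change of -1.31 ± 0.47 did not pass the test (limma adjusted p 0.174), whereas that of -0.77 without the array did (0.0142). IRS2 read 1.20, 1.14 and 1.12 in control and 2.39, 1.56 and 1.37 in melatonin-treated cells. Its log2 fold change was 0.62 with the array (limma adjusted p 0.236) and 0.31 without it (0.0131), at a low signal, with both group means below the median of all genes. INSR read 4.11, 4.05 and 4.02 in control and 4.79, 4.28 and 4.30 in melatonin-treated cells. Its log2 fold change was 0.40 with the array (limma adjusted p 0.197) and 0.23 without it (0.0222). The array was thus the extreme one in all 3 genes, and the direction was the same with and without it. IRS1 showed the same pattern, at 5.27 on that array against 4.68 and 4.62 on the others and 4.53 to 4.59 in control cells, and did not pass the test either way (limma adjusted p 0.413 and 0.338).

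The HepG2 calls also changed when other arrays were left out. With melatonin replicate 1 kept and any 1 of the 3 control arrays left out, none of the 10 genes passed the limma test. The log2 fold change of IGFBP1 then ran from 2.14 to 2.28, with adjusted p-values from 0.0531 to 0.0578. Without melatonin replicate 2 the call of IGF1R was lost (limma adjusted p 0.0515), and without melatonin replicate 3 that of IGFBP2 (0.103).

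**Figure D2:**
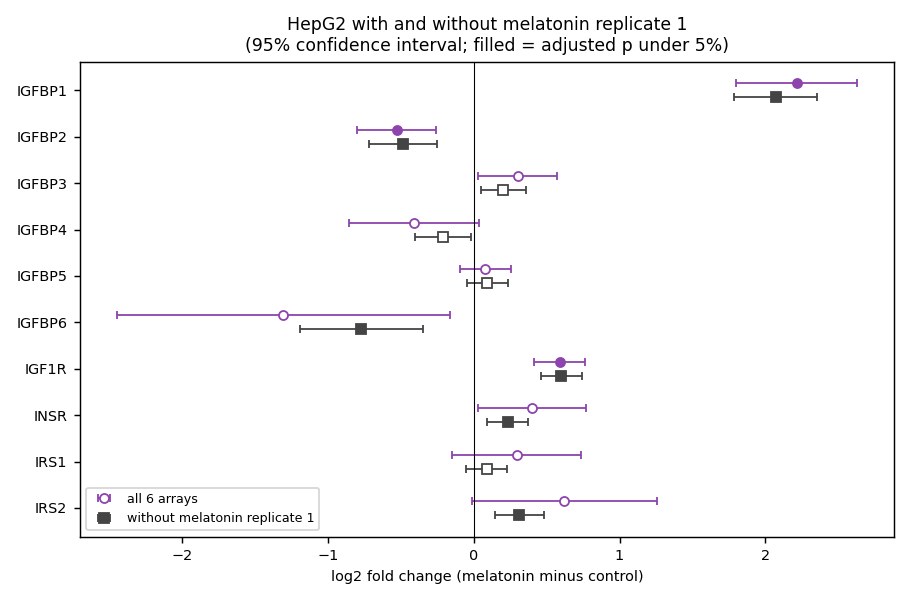
Log2 fold change in HepG2 cells (melatonin minus control, horizontal axis) with its 95% confidence interval, from all 6 arrays (circles) and without melatonin replicate 1 (squares). Filled marks passed an adjusted p of 5%; IGFBP1, IGFBP2 and IGF1R passed in both fits, and IGFBP6, INSR and IRS2 passed without the array.

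In HGC-27 cells the changes were in 3 binding proteins. IGFBP3, the main carrier of IGFs in blood, read 7.17, 7.15 and 7.27 in control and 6.31, 6.33 and 6.42 in melatonin-treated cells. The groups were far apart beside their spread, and the log2 fold change was -0.84 ± 0.05, a 1.8-fold fall (limma adjusted p 8.59e-06). Both of its probe sets fell, by 0.72 and 0.96 on the log2 scale. Fewer cells expressing a gene and less RNA per cell cannot be told apart in such bulk samples.

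IGFBP4, which inhibits IGFs and is cleaved by the protease PAPPA, rose in the same cells. It read 6.50, 6.37 and 6.39 in control and 6.81, 7.10 and 6.73 in melatonin-treated cells, with no overlap. The log2 fold change was 0.46 ± 0.09 (limma adjusted p 0.00364), and 3 of its 4 probe sets passed the test. The call was lost with the methods' t-test (adjusted p 0.0508). PAPPA itself was at low signal in all 4 lines.

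IGFBP5, a binding protein that attaches to the extracellular matrix, read 4.15, 4.31 and 4.12 in control and 3.73, 3.82 and 3.74 in melatonin-treated HGC-27 cells. It fell by 0.43 on the log2 scale (SE 0.06, limma adjusted p 0.000598), and 5 of its 6 probe sets passed the test in this direction. The call was lost with arrays centred on the ERCC spike-in probe sets, where the log2 fold change was -0.28. All 5 fibroblast markers were lower with melatonin in HGC-27 cells, beside 18.7% of all genes, and 3 of the 5 lay above the median of all genes. The sum of the log2 levels of the 5 markers was 27.6 to 27.9 in control and 22.7 to 23.5 in melatonin-treated cells. Their part in the IGFBP changes was not tested.

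The other members did not pass the test in HGC-27 cells. IGFBP2 and IGFBP6, both well expressed there, had log2 fold changes of -0.03 and -0.04, with 95% confidence intervals of -0.13 to 0.06 and -0.18 to 0.10. INSR (0.17, limma adjusted p 0.0597) and IRS1 (0.23, 0.056) just missed the threshold, and both passed it without melatonin replicate 2. Both genes were at low signal in this line.

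In HCT-8 cells INSR, the insulin receptor, was higher and 2 binding proteins were lower. INSR read 3.04, 3.06 and 2.86 in control and 3.33, 3.39 and 3.31 in melatonin-treated cells. The groups did not overlap, and the log2 fold change was 0.36 ± 0.07 (limma adjusted p 0.00375).

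IGFBP2, highest in HCT-8 cells among the 4 lines, read 8.34, 8.29 and 8.38 in control and 8.0, 8.07 and 8.07 in melatonin-treated cells. IGFBP6 read 5.90, 5.95 and 6.02 and then 5.72, 5.77 and 5.77. Neither gene overlapped between the groups, and both changes were small. The log2 fold changes were -0.29 ± 0.05 and -0.20 ± 0.05 (limma adjusted p 0.00367 and 0.0224) as deposited. With arrays centred on the ERCC spike-in probe sets, which moved all HCT-8 genes up by 0.24, that of IGFBP2 was -0.05 and that of IGFBP6 turned to 0.04. Only 1 of the 100 ERCC probe sets lay above the median in this line. The call of IGFBP6 was also lost when control replicate 3 or any 1 of the 3 melatonin arrays was left out, with log2 fold changes from -0.21 to -0.17. IRS2, the substrate expressed in this line, had a log2 fold change of 0.10 (95% confidence interval -0.07 to 0.26).

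In Huh-7 cells INSR was higher as well. It read 5.06, 5.11 and 4.97 in control and 5.5, 5.36 and 5.46 in melatonin-treated cells, with no overlap. The log2 fold change was 0.39 ± 0.06 (limma adjusted p 0.000815), and 4 of its 5 probe sets passed the test.

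The other 2 calls in Huh-7 cells were at low signal. IRS2 read 1.19, 1.19 and 1.18 in control and 1.42, 1.41 and 1.38 in melatonin-treated cells, a log2 fold change of 0.22 ± 0.05 (limma adjusted p 0.00412). It rested on 1 of its 2 probe sets, which had a log2 fold change of 0.37 against 0.06 for the other. IGFBP4 read 2.12, 2.05 and 2.18 in control and 1.90, 1.80 and 1.90 in melatonin-treated cells, a log2 fold change of -0.25 ± 0.06 (limma adjusted p 0.00643). Both calls were lost with ERCC centring (log2 fold changes 0.20 and -0.27) and with the spread of all 24 arrays. IRS1, well expressed in this line, had a log2 fold change of 0.03 (95% confidence interval -0.09 to 0.15).

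**Figure D3:**
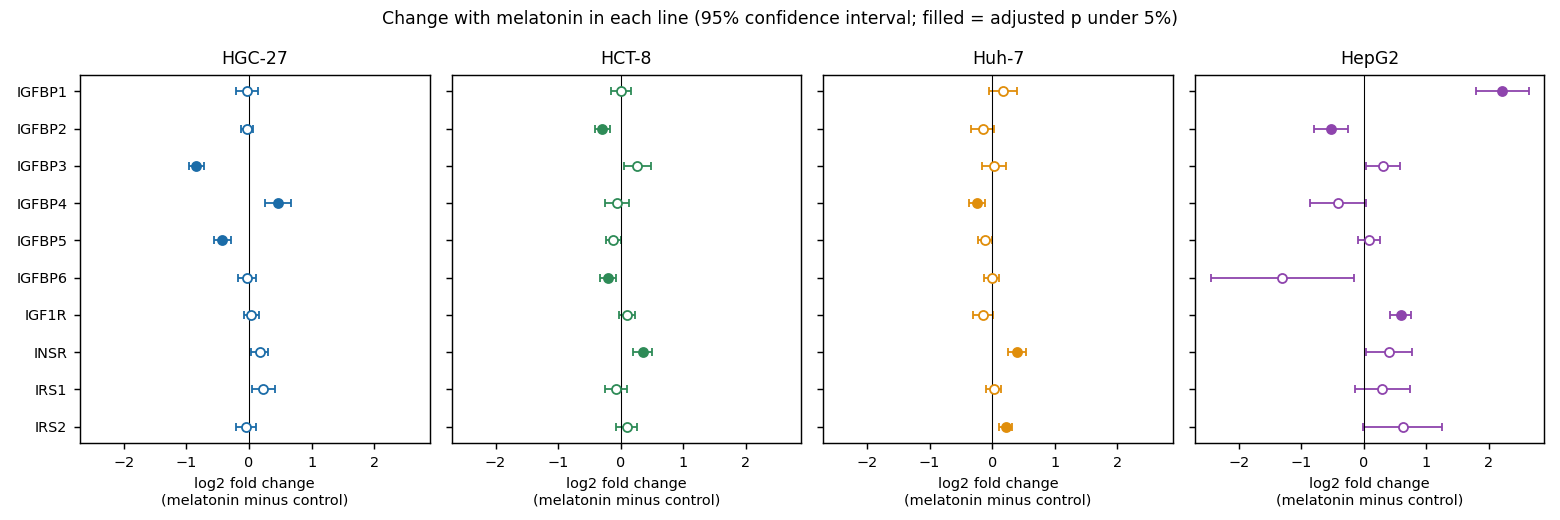
Log2 fold change of each gene (melatonin minus control, horizontal axis) with its 95% confidence interval from limma, 1 panel per line with 3 control and 3 melatonin arrays. Filled circles passed an adjusted p of 5%: 3 genes in each line. The HepG2 value of IGFBP1 (2.21) is the one farthest from 0, and the wide intervals of IGFBP6 and IRS2 in HepG2 cells include melatonin replicate 1.

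The effect of melatonin differed between the 4 lines for 7 of the 10 genes (interaction F test of a joint limma fit of 24 arrays, adjusted p under 5%), beside 34.3% of all genes. These were the 6 binding proteins and IGF1R. IGFBP1 was at low signal in all lines but HepG2, and IGFBP3 and IGFBP5 in all lines but HGC-27. For these genes the test sets a line that expresses the gene against lines at low signal, where a change is hard to see. IGFBP1 and IGF1R rose in HepG2 cells, IGFBP3 and IGFBP5 fell in HGC-27 cells, and IGFBP4 had values of -0.41 in HepG2 (-0.21 without melatonin replicate 1), 0.46 in HGC-27, -0.25 in Huh-7 and -0.06 in HCT-8 cells. INSR (interaction adjusted p 0.452), IRS1 (0.241) and IRS2 (0.0961) did not pass. INSR had log2 fold changes of 0.40 in HepG2 (0.23 without melatonin replicate 1), 0.17 in HGC-27, 0.39 in Huh-7 and 0.36 in HCT-8 cells. Its melatonin arrays lay above the control arrays in each of the 4 lines, at low signal in HGC-27 cells. Arrays of the 2 groups did not overlap for 35.5% to 59.5% of all genes, depending on the line. Without HepG2 melatonin replicate 1, 8 genes passed, IRS2 among them (interaction adjusted p 0.0191), beside 53.6% of all genes. The interaction of IGFBP6 did not pass without HepG2 control replicate 1 (0.0875) or control replicate 3 (0.0595).

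The 2 hepatic lines were also compared with each other. The effect in Huh-7 minus that in HepG2 cells passed the test for 4 of the 10 genes, beside 21.1% of all genes. It was -2.04 ± 0.17 for IGFBP1 (limma adjusted p 4.88e-08), -0.74 ± 0.08 for IGF1R (1.76e-06), 0.38 ± 0.11 for IGFBP2 (0.0172) and 1.30 ± 0.38 for IGFBP6 (0.0182). Without HepG2 melatonin replicate 1, a comparison added after the data were seen, these 4 passed as well, with 0.77 ± 0.16 for IGFBP6 (0.000847), and IGFBP5 then passed at -0.21 ± 0.07 (0.0308). IGFBP1, IGFBP2 and IGFBP6 were at low signal in Huh-7 cells. For INSR the difference was -0.0046 ± 0.14 (adjusted p 0.985), and 0.16 ± 0.09 without that array (0.191).

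The probe sets of a gene did not always move together. Of the 32 probe sets, 2 passed in HepG2, 16 in HGC-27 (8 higher and 8 lower), 13 in Huh-7 and 5 in HCT-8 cells, beside 4.41%, 34.8%, 45.5% and 25.4% of all probe sets. Without HepG2 melatonin replicate 1, 12 of 32 passed in HepG2 cells, beside 27% of all.

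IGF1R showed the clearest split, over 7 probe sets. Probe set 11718704_at was higher in all 4 lines, with log2 fold changes of 1.56 in HepG2 (1.49 without melatonin replicate 1), 0.54 in HGC-27, 0.46 in Huh-7 and 0.34 in HCT-8 cells. In HCT-8 cells, where IGF1R was at low signal, this probe set had means of 1.25 in control and 1.59 in melatonin-treated cells. In HGC-27 cells it read 3.98, 4.18 and 4.07 in control and 4.64, 4.63 and 4.58 in melatonin-treated cells. Probe set 11718705_at read 5.08, 5.06 and 5.03 and then 4.68, 4.70 and 4.66 in the same cells. The first rose and the second fell by 0.38 on the log2 scale, and the gene mean of 0.03 had a 95% confidence interval of -0.09 to 0.16. In Huh-7 cells the second also fell (-0.41), as did 2 further probe sets (-0.57 and -0.45), against the rise of the first. In HepG2 cells all 7 probe sets had positive log2 fold changes, from 0.01 to 1.56, and 4 of 7 passed without melatonin replicate 1. No position of these probe sets along the transcript was used here.

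INSR and IRS1 also held probe sets of unequal change. For INSR, 11720856_a_at and 11740018_a_at were higher in Huh-7 (0.72 and 0.51), HGC-27 (0.46 and 0.48) and HCT-8 cells (0.63 and 0.58), and in HepG2 cells they passed without melatonin replicate 1 (0.48 and 0.30). In HGC-27 cells, where the gene mean of INSR missed the threshold, the other 3 had log2 fold changes from -0.15 to 0.11. For IRS1, 11743629_at was higher in HGC-27 (0.47) and Huh-7 cells (0.45), whereas 11743628_at was lower in Huh-7 cells (-0.32). The former also passed in HepG2 cells without melatonin replicate 1 (0.50).

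**Figure D4:**
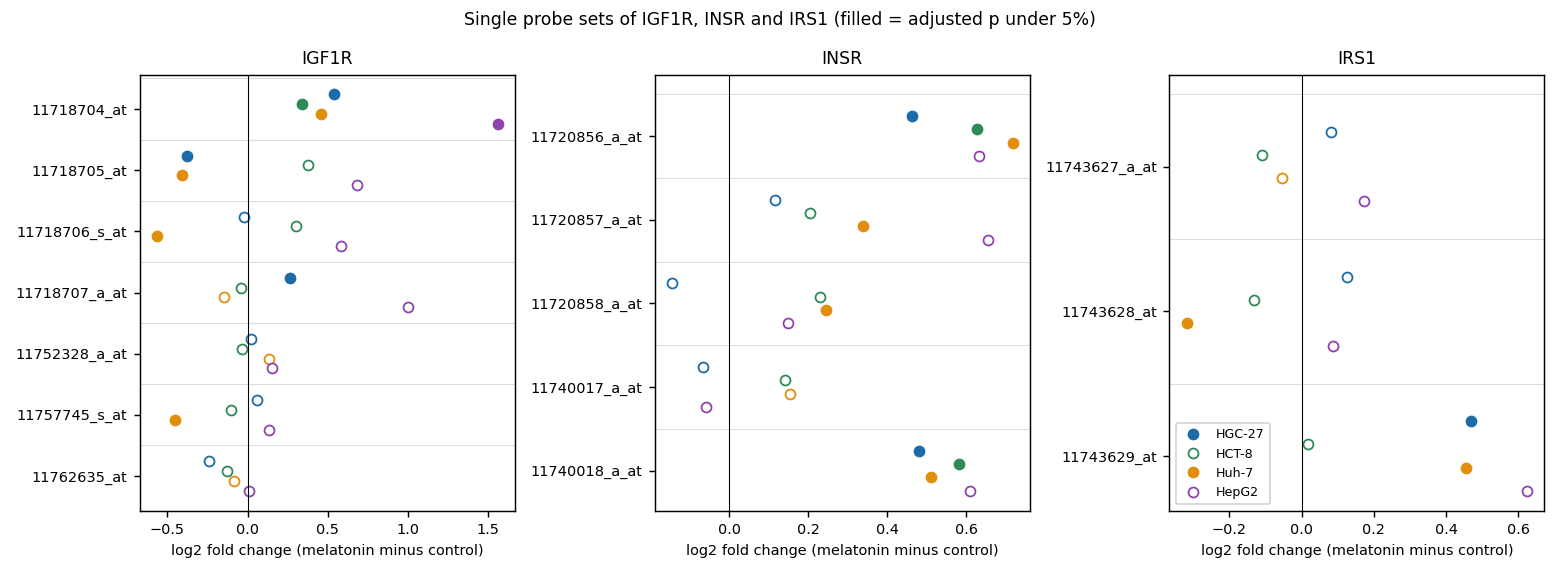
Log2 fold change (melatonin minus control, horizontal axis) of each probe set of IGF1R, INSR and IRS1, coloured by line; filled circles passed an adjusted p of 5% over all probe sets. For IGF1R the top row lies to the right of 0 in all 4 lines, while the second row has filled circles to the left of 0 in HGC-27 (-0.38) and Huh-7 cells (-0.41).

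The surrounding pathway was described with a list of 74 genes, 65 of them measured. The list was chosen with earlier results of these data known, so its shares beside those of all genes are a description and not a test. In HGC-27 cells 26 were higher (40%, beside 20.9% of all genes) and 10 lower (15.4%, beside 18.7%). In Huh-7 cells 26 were higher (40%, beside 23.8%) and 14 lower (21.5%, beside 27.4%). In HCT-8 cells 17 were higher (26.2%, beside 16.6%) and 5 lower (7.69%, beside 15%). In HepG2 cells 5 were higher (7.69%, beside 3.87%) and 1 lower (1.54%, beside 3.67%), and without melatonin replicate 1 these were 26 and 5, beside 16.4% and 14.9% of all genes. The median log2 fold change of the list was 0.08 in HepG2, 0.07 in HGC-27, 0.05 in Huh-7 and 0.02 in HCT-8 cells, beside 0.04, -0.01, -0.06 and -0.03 over all genes. Without melatonin replicate 1 it was 0.09 in HepG2 cells, beside 0.006 over all genes.

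Among ligands and other receptors, IGF1 was at low signal in all 4 lines, and IGF2 was not analysed because its probe sets carry several gene symbols. IGF2R, which takes IGF2 up for degradation, rose in HGC-27 (0.42 on the log2 scale) and Huh-7 cells (0.71), and had values of 0.30 in HCT-8 and -0.06 in HepG2 cells, the latter 0.07 without melatonin replicate 1. STC2, a stanniocalcin that inhibits PAPPA, rose in HGC-27 (0.43) and Huh-7 cells (0.97), the latter among the largest changes of the list there. In HepG2 cells STC2 read 5.71, 5.65 and 5.75 in control and 5.98, 6.29 and 6.12 in melatonin-treated cells.

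Several genes of the list passed the test in most lines. DDIT4, a stress-induced inhibitor of mTORC1, had log2 fold changes of 2.81 in Huh-7, 1.93 in HGC-27 and 2.23 in HCT-8 cells. TRIB3, a pseudokinase that can bind AKT, had 0.75, 2.08 and 0.79 in the same lines. In HepG2 cells these were 0.79 and -0.34 and did not pass with all arrays, and passed without melatonin replicate 1 at 1.62 and 0.70. GRB10, an adaptor that damps IGF1R and INSR signals, rose in all 4 lines (0.72 in HepG2, 0.72 in HGC-27, 0.56 in Huh-7 and 1.05 in HCT-8 cells), and FOXO3 did so too (0.84, 0.59, 1.30 and 0.36).

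The liver genes that share insulin control with IGFBP1 were read beside it. G6PC1, the last enzyme of glucose production, read 1.61, 1.62 and 1.67 in control and 2.83, 3.28 and 2.98 in melatonin-treated HepG2 cells, a log2 fold change of 1.39 ± 0.13 (limma adjusted p 0.00614). PPARGC1A, a coactivator of this programme, read 3.13, 3.07 and 3.05 and then 4.06, 4.01 and 4.02, a change of 0.95 ± 0.07 (limma adjusted p 0.00447). Both were higher on all 3 melatonin arrays. They were at low signal in the other 3 lines, where neither passed the test. PCK1, named after its values were seen, was at low signal in HepG2 cells too, with a log2 fold change of 0.68 (limma adjusted p 0.113) and 0.45 without melatonin replicate 1 (0.0042). PCK2, the mitochondrial isoform, is given beside PCK1 and is not taken here as sharing that insulin control. It rose in Huh-7 (1.32), HGC-27 (0.86) and HCT-8 cells (1.01). In HepG2 cells it read 7.35, 7.40 and 7.28 in control and 5.45, 8.01 and 8.01 in melatonin-treated cells, where the low value is that of replicate 1. Its log2 fold change was -0.19 with that array (limma adjusted p 0.903) and 0.67 without it (0.000234). SREBF1, a lipogenic factor induced by insulin, was lower in Huh-7 (-0.27), HGC-27 (-0.67) and HCT-8 cells (-0.21). In HepG2 cells SREBF1 read 3.55, 3.60 and 3.56 in control and 2.88, 3.43 and 3.38 in melatonin-treated cells. The lowest value is that of replicate 1, and SREBF1 did not pass the test there with all arrays.

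**Figure D5:**
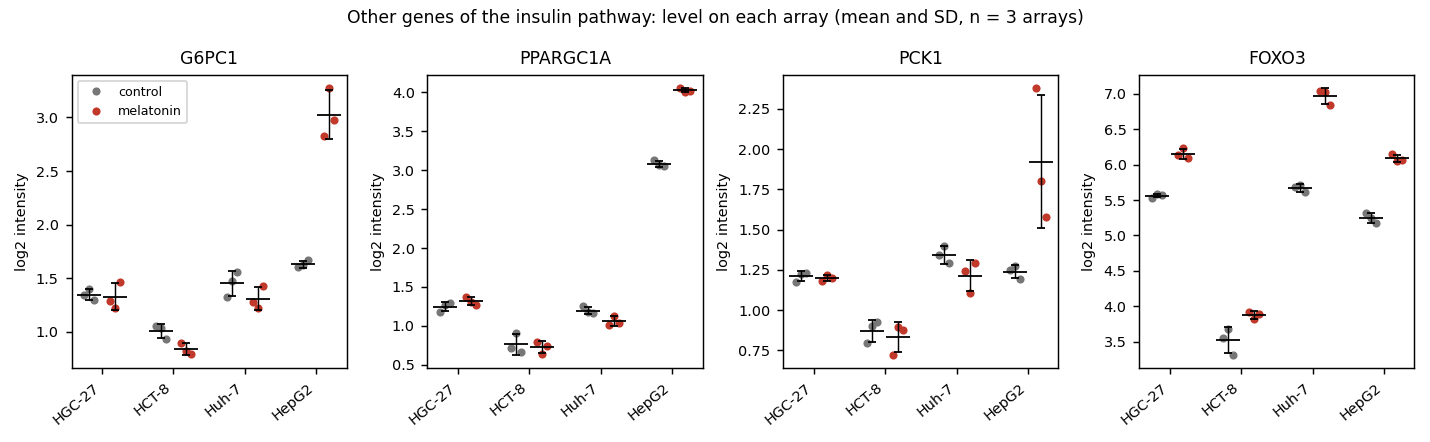
Deposited log2 intensity (vertical axis, scaled per gene) of G6PC1, PPARGC1A, PCK1 and FOXO3 on each control (grey) and melatonin (red) array, with the mean and SD of 3 arrays. In HepG2 cells the melatonin arrays of G6PC1 lie at 2.83 to 3.28 against 1.61 to 1.67 in control cells.

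The IGF2 mRNA-binding proteins, which bind the message of IGF2 and other transcripts, moved in different directions by line. IGF2BP3 fell in HGC-27 (-0.49), Huh-7 (-0.53) and HepG2 cells (-0.91) and rose in HCT-8 cells (0.33). IGF2BP1 fell in HGC-27 (-0.37) and Huh-7 cells (-0.83). In HepG2 cells IGF2BP1 read 6.74, 6.77 and 6.70 in control and 4.99, 6.08 and 6.36 in melatonin-treated cells. The lowest value is that of melatonin replicate 1, and the gene did not pass the test there with all arrays. Further genes of the list that changed were EIF4EBP1 (0.82), RPS6KB2 (-0.56) and RHEB (-0.48) in HGC-27 cells, AKT1 (-0.27), SOCS2 (-0.25) and IGFALS (-0.30) in HCT-8 cells, and PTPN2 (-0.75) and SHC1 (-0.71) in Huh-7 cells.

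Genes with a like pattern were sought for the 3 members whose fold change ranged most over the lines, as the Pearson correlation over 24 arrays after the control mean of each line was taken off. The arrays are shared by all genes, and these values are a description. For IGFBP1 the closest were RAB31 (r = 0.983), HOXD1 (0.976) and FST (0.966), with log2 fold changes of 0.92, 1.85 and 1.5 in HepG2 cells. For IGFBP6 they were ETFB (0.967), SERPINH1 (0.965) and B4GAT1 (0.962), whose HepG2 values (-1.02, -1.53 and -1.15) include melatonin replicate 1. IGFBP6 read 1.60 on that array against 2.92 and 3.49 on the other HepG2 melatonin arrays. The correlations include that array too and were not computed without it. For IGFBP3 they were TENT5A (0.93), POSTN (0.921) and UBQLN2 (0.914), with -0.90, -0.67 and -0.42 in HGC-27 cells.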

How the data were processed

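RNA of each sample was hybridized to 1 customized PrimeView array, and the values as deposited are log2 intensities from the robust multichip analysis (RMA) of the authors, which corrects the background, equalizes the distributions and summarises the probes of a probe set. The array medians look as if lines were normalized separately, so tests were made within a line. The platform annotation names 1 gene for 45342 of 49495 probe sets, several for 1275 and none for 2878. Those with 1 gene were used, less 6 control probe sets, 45336 in all. Their mean per gene gave 18265 genes. Melatonin and control arrays (3 and 3 per line) were compared in limma 3.58.1 (R 4.3.3), and p-values were adjusted over all genes by the Benjamini-Hochberg procedure at 5%. The same was done per probe set. Effects were compared between lines in a joint fit of 24 arrays with 1 spread per gene, which includes HepG2 melatonin replicate 1. The fits were tested on simulated data. "Low signal" means both group means below the median of all genes of the line.

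The members and lists were chosen with earlier results of these data known. Named are all 10 members, from the pathway list up to 4 higher and 4 lower called genes per line whose arrays did not overlap, IGF1, IGF2 and IGF2R, and 3 genes of like pattern for 3 members; a few others of the list are given beside them. The number of arrays limits the precision.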

Additional observations from a re-analysis of the deposited data

Results flagged for a closer look

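The melatonin effect of 7 members differed between the 4 lines by the interaction F test of the joint limma fit of 24 arrays. IGFBP1 was at low signal in all lines but HepG2, and IGFBP3 and IGFBP5 in all lines but HGC-27, and a change is hard to see at low signal. For IGFBP1 the adjusted p was 7.16e-09, with log2 fold changes of 2.21 in HepG2 cells and -0.03 to 0.17 in the other lines. For IGFBP3 it was 4.09e-06, with -0.84 in HGC-27 cells and 0.03 to 0.30 elsewhere. IGF1R gave 5.35e-06, with 0.59 in HepG2 cells and -0.15 to 0.10 elsewhere. IGFBP5 gave 0.000188, with -0.43 in HGC-27 cells and -0.12 to 0.08 elsewhere. IGFBP4 gave 0.00359, with -0.41 in HepG2 (-0.21 without melatonin replicate 1), 0.46 in HGC-27, -0.25 in Huh-7 and -0.06 in HCT-8 cells. IGFBP2 gave 0.00675, with -0.53 in HepG2, -0.03 in HGC-27, -0.15 in Huh-7 (at low signal) and -0.29 in HCT-8 cells. IGFBP6 gave 0.0265, with -1.31 in HepG2 cells, or -0.77 without melatonin replicate 1, and -0.20 to -0.00464 elsewhere.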

How the results depend on the processing

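Of the 40 log2 fold changes of members in single lines and the 10 interaction tests, under all alternatives together, 590 values kept their direction and their side of the threshold, 41 lost the call, 36 gained one and 2 reversed. The reversals were IGF1R in HGC-27 cells with the probe set of the highest mean (-0.38) and IGFBP6 in HCT-8 cells with ERCC centring (0.0375). Counts below are of members unless the pathway list or probe sets are named, and unless stated the cause was not tested. ERCC centring moved all genes by -0.24 in HepG2, 0.14 in HGC-27, -0.02 in Huh-7 and 0.24 in HCT-8 cells, and rests on 1 or 2 spike-in probe sets above the median of a line. It gave 1 higher in HepG2, 3 higher and 1 lower in HGC-27, 1 and 0 in Huh-7 and 2 and 0 in HCT-8 cells, and for the pathway list 1 higher and 4 lower in HepG2, 4 lower in HGC-27, 9 lower in Huh-7 and 0 lower in HCT-8 cells. Median centring gave 3 lower in Huh-7 and 0 lower in HepG2 cells. The probe set with the highest mean gave 3 higher in HGC-27, 2 lower in Huh-7 and, for the pathway list, 9 higher in HepG2 cells. The filter at the 25th percentile gave 3 higher in HGC-27, 1 higher in Huh-7 and 2 lower pathway genes in HepG2 cells. Quantile normalization again gave 8 probe sets in HCT-8 and 2 lower pathway genes in HepG2 cells. The joint fit gave 1 lower in HCT-8, 1 higher in Huh-7, and 5 higher and 3 lower in HepG2 cells, and for the pathway list 4 lower in HGC-27, 1 lower in HCT-8, and 22 higher and 8 lower in HepG2 cells. Array weights gave 3 higher in HGC-27, 5 higher and 3 lower in HepG2, and 27 and 5 for the pathway list in HepG2 cells. The intensity trend gave 0 lower in HepG2 cells. The methods' t-test gave 0 higher in HGC-27, 2 lower in Huh-7 and 0 lower in HepG2 cells. A minimum of 1.5-fold gave 0 lower in HepG2, 0 higher and 1 lower in HGC-27, and 0 and 0 in Huh-7 and HCT-8 cells, and for the pathway list 11 and 3 in Huh-7, 8 and 1 in HGC-27 and 5 and 0 in HCT-8 cells.

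Deviations of same-numbered arrays had correlations from -0.04 to 0.14, and those of differently numbered arrays from -0.13 to 0.13. The ranges overlapped in each line, so no clear shared deviation of same-numbered arrays was seen. Such weak correlations from few arrays cannot show whether the numbers pair the samples. With the replicate block, 1 member was higher and 0 lower in HepG2 cells, 2 were higher in HGC-27 and 2 in HCT-8 cells, and 0 pathway genes in either direction and 0 probe sets passed in HepG2 cells, while the interaction of IGFBP6 was lost (0.0646).

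With each array left out in turn, members ran from 0 to 4 higher and 0 to 2 lower in HepG2, 1 to 3 and 2 to 2 in HGC-27, 2 to 2 and 1 to 3 in Huh-7, and 1 to 1 and 1 to 2 in HCT-8 cells. Pathway genes ran from 0 to 26 higher and 0 to 5 lower in HepG2, 23 to 26 and 9 to 11 in HGC-27, 24 to 25 and 11 to 17 in Huh-7, and 13 to 20 and 2 to 6 in HCT-8 cells. Probe sets ran from 0 to 12, 14 to 16, 10 to 14 and 4 to 6 in the same order, and genes whose effect differed between lines from 6 to 8. The 3 arrays per group limit the precision.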
